A study of Mus musculus with 8 samples.

Results

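Regulator of G protein signalling (RGS) genes were followed across 8 RNA sequencing libraries of mouse embryonic fibroblasts, which are connective tissue cells grown from embryos. The genes were chosen by symbol, from 10 named RGS genes. Of these, 9 were measured among 12211 genes in the count table: Rgs17, Rgs19, Rgs2, Rgs3, Rgs4, Rgs5, Rgs16, Rgs10 and Rgs12. All 9 passed the filter on low counts that left 11909 genes to be tested, and Rgs14 was not analysed here. The choice was made with the counts known, because Rgs17 had been seen in 1 genotype only. For that reason the difference between genotypes is given for these 9 genes as a description with its error, and no p-value of it is printed.

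The study compared 4 control libraries, whose genotype is labelled WT, with 4 PUS10KO libraries, and the libraries of a genotype carry the numbers 1 to 4. PUS10 converts uridine to pseudouridine in RNA. For the age of the embryos, the strain and the way the knockout was made no source used here gives details, nor is it stated that libraries came from separate cultures, lines or embryos. Values of 4 libraries are given in the order of their numbers. The p-values below therefore measure only the spread between these libraries, which may be technical.

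Total counts ran from 17561114 to 24563499 per library. Pus10 itself, the targeted gene, had 40.1 to 51.8 CPM (counts per 1000000 of the TMM-scaled library total) in control and 11.5 to 15.2 CPM in PUS10KO. All 12 fibroblast markers were measured, and their summed level was 15286 to 18147 CPM in control and 9901 to 14108 CPM in PUS10KO. By the edgeR test between genotypes 7.11% of all genes tested fell and 5.90% rose. Of these 12 markers 5 fell (Col1a2, Vim, Pdgfrb, Thy1 and Twist1) and 0 rose. The call of Thy1 held whichever library was left out, and those of the other 4 in only 1 or 2 of the 8 such fits. With a term for the library number in the model all 5 were called (edgeR adjusted p up to 0.0075), where 39.0% of all genes tested were. Thy1 had 20.8 to 23.04 CPM in control and at most 0.0551 CPM in PUS10KO. The Y-linked gene Eif2s3y had 0 counts in every control library and 65.9 to 73.8 CPM in PUS10KO, so that genotype and sex chromosome content cannot be told apart in any result below. In such bulk libraries fewer cells of a type and less RNA per cell cannot be told apart either.

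RGS proteins end signals from G protein-coupled receptors. A receptor loads the G protein alpha subunit with GTP, and the RGS domain speeds the hydrolysis of that GTP, which returns the subunit to its resting state. The family is divided by sequence. Rgs17 and Rgs19 belong to the RZ group, whose members act on Gi, Go and Gz. Rgs2, Rgs3, Rgs4, Rgs5 and Rgs16 belong to the R4 group, which acts on Gi or Gq and in which Rgs2 prefers Gq. Rgs10 and Rgs12 belong to the R12 group, which acts on Gi.

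The 250 bases before the RefSeq start sites of 3 genes are shown, because these genes carried the contrasts of the data: Rgs17 differed between genotypes, and Rgs16 and Rgs2 differed between library numbers in opposite directions. Sequences are from RefSeq (GRCm38.p6), on the strand of the gene, and capitals mark matches to the motifs searched. The windows are chr10:5922401-5922650 (minus strand) for Rgs17, chr1:153740103-153740352 (plus strand) for Rgs16 and chr1:144004150-144004399 (minus strand) for Rgs2.
Rgs17: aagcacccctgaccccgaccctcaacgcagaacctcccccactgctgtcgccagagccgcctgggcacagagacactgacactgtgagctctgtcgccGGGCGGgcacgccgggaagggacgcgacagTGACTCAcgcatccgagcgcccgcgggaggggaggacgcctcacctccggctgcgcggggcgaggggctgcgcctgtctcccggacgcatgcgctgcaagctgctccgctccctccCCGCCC
Rgs16: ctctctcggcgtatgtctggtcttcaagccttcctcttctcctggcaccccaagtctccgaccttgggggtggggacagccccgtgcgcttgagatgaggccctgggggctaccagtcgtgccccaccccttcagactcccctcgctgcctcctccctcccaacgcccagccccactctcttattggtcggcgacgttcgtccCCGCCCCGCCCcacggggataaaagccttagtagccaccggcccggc
Rgs2: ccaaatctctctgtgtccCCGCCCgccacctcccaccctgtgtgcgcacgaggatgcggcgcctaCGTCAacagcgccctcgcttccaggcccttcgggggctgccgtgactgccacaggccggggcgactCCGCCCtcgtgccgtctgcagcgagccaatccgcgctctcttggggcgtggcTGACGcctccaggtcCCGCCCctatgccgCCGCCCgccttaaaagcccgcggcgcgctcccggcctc

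Motifs were searched on both strands of the same 250 bases, in these windows and in all 32851 RefSeq promoter windows. The GC box GGGCGG stood 2 times in Rgs17, 2 times in Rgs16, where the matches overlap by 1 base, and 4 times in Rgs2, and 32.7% of all windows held it. The AP-1 letters TGANTCA stood once in Rgs17 and in 6.75% of all windows. The short form of the cAMP response element, TGACG, stood 2 times in Rgs2, also in windows of Rgs12 and Rgs4, and in 17.8% of all windows. None of the 3 windows held the TATA box TATAAA (12.4% of all windows), the full cAMP response element TGACGTCA (1.55%) or the core of the interferon-stimulated response element (2.98%). The Rgs17 window held 27 CG dinucleotides, the Rgs2 window 30 and the Rgs16 window 17, and the median over all windows was 6. The Rgs10 window also held 27, and 1 window of Rgs19 held 34. A match describes the letters and shows no binding, and a link of motifs to the contrasts was not tested.

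Rgs17 (ENSMUSG00000019775.17, chromosome 10, 5825663 to 5922400, minus strand, GRCm38) was the gene that drew attention to this family. It had 1, 3, 0 and 2 reads among the controls, and 591, 680, 582 and 523 reads among the knockouts. On the CPM scale these were 0.0487, 0.164, 0 and 0.0958 in control, and 32.6, 27.0, 24.57 and 28.3 in PUS10KO. The lowest PUS10KO library thus lay far above the highest control library, and the 4 PUS10KO libraries lay close together. Means were 0.0772 ± 0.0700 CPM and 28.1 ± 3.34 CPM (SD, n = 4 each). Over each genotype the counts were 6 and 2376, a ratio of 367 after scaling, with an exact 95% interval of 168 to 999.98 that covers counting error only. The fitted log2 fold change was 8.42 (SE 0.40), and it depends on how the fit treats the few control reads. Without control 2, which held 3 of the 6 control reads, it was 8.99. In the GENCODE M21 annotation no other gene overlaps Rgs17. The annotation used for the counts is not stated, and the origin of these reads was not tested further.

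**Figure D1:**
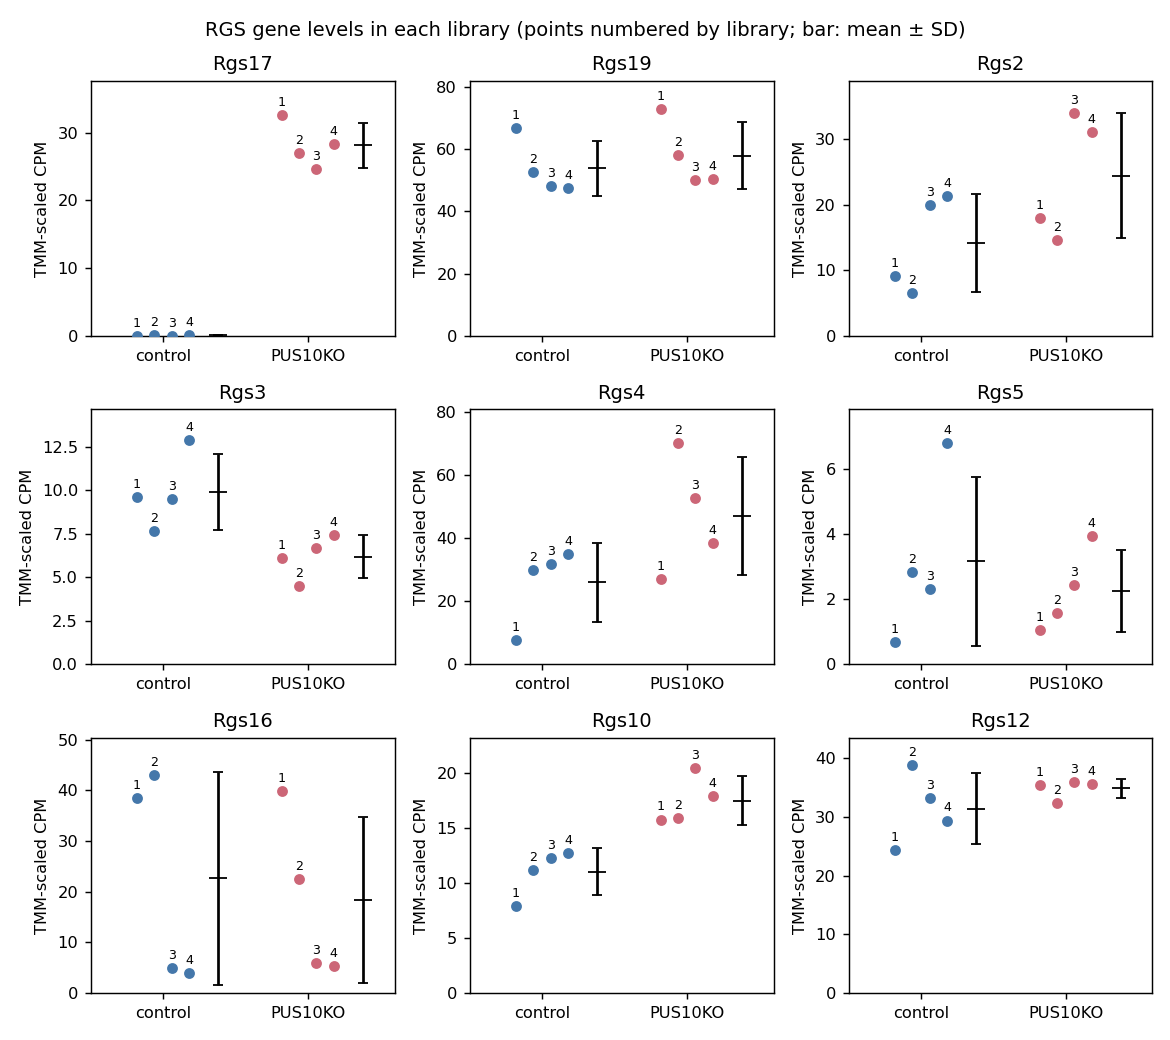
TMM-scaled CPM of each of the 9 RGS genes (vertical axis, linear, starting at 0) in the 4 control and 4 PUS10KO libraries, with points numbered by library and a black bar for the mean ± SD. Rgs17 is near 0 in control and between 24.57 and 32.6 CPM in PUS10KO, and Rgs16 is high in libraries 1 and 2 and low in libraries 3 and 4 of both genotypes.

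Of the other RZ genes, Rgs19 (chromosome 2, 181688419 to 181693977), which encodes the G alpha-interacting protein GAIP, differed little between genotypes. It had 66.8, 52.7, 48.2 and 47.5 CPM among the controls, and 73.0, 58.1, 50.1 and 50.4 CPM among the knockouts. The groups overlapped, and the log2 fold change was 0.11 (SE 0.17). Rgs20, the third RZ gene, was outside the choice of 9 and stood on a list of other genes with an RGS domain. It rose from 0.491 ± 0.238 to 1.53 ± 0.348 CPM (log2 fold change 1.63, SE 0.38), with an adjusted p of 0.0239 by the quasi-likelihood test of edgeR, adjusted after Benjamini and Hochberg over all genes tested. Its reads numbered 17, 9, 6 and 7 among the controls and 36, 39, 27 and 27 among the knockouts. The control reads would not have passed the filter on low counts without those of the knockouts. The call was lost without control 2, 3 or 4, PUS10KO 1 or PUS10KO 2 (adjusted p up to 0.0661). Rgs20 shares 127 exon bases with Atp6v1h on the opposite strand, and without a stated strand setting reads from the 2 genes cannot be told apart there.

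Among the R4 genes, Rgs2 was higher and Rgs3 was lower in PUS10KO in all 4 pairs of libraries with the same number. Rgs2 (chromosome 1, 143999338 to 144004161), the regulator that prefers Gq, had 9.20, 6.51, 19.9 and 21.3 CPM among the controls. Among the knockouts it had 18.0, 14.6, 33.9 and 31.0 CPM. The genotypes overlapped, since control 3 and 4 lay above PUS10KO 1 and 2, while libraries of the same number differed by 0.96, 1.16, 0.76 and 0.54 on the log2 CPM scale. The log2 fold change was 0.78 (SE 0.42) without and 0.85 (SE 0.12) with the replicate block, a model term for the library number. Its error was thus smaller once the number was in the model.

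Rgs3 (chromosome 4, 62559847 to 62704001), a regulator of Gi and Gq, had 9.59, 7.66, 9.48 and 12.9 CPM among the controls and 6.11, 4.50, 6.67 and 7.41 CPM among the knockouts. All control libraries lay above all PUS10KO libraries, although control 2 and PUS10KO 4 were close. Its log2 fold change was -0.68 (SE 0.23, or 0.13 with the block), and the pairs differed by -0.64, -0.76, -0.50 and -0.79. None of the other 8 genes was lower in PUS10KO in all 4 pairs.

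Rgs4 and Rgs5 lie side by side on chromosome 1 (169741477 to 169747642 and 169655501 to 169695813), with lower boundaries 86.0 kb apart. Rgs4, a regulator of Gi and Gq best known from neurons, had 7.59, 29.9, 31.7 and 35.0 CPM among the controls. Among the knockouts it had 27.0, 70.2, 52.6 and 38.4 CPM. It was higher in PUS10KO in each pair, by 1.82, 1.23, 0.73 and 0.13 on the log2 CPM scale, so the difference was small in the pair numbered 4 (log2 fold change 0.85, SE 0.45). Rgs5, a marker of pericytes, had 0.681, 2.85, 2.32 and 6.80 CPM in control and 1.05, 1.59, 2.45 and 3.95 CPM in PUS10KO. Its pairs went both ways (0.55, -0.80, 0.08 and -0.77), and its log2 fold change was -0.49 (SE 0.64), turning to 0.23 without control 4.

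Rgs16 (chromosome 1, 153740349 to 153745468), an inducible regulator of Gi and Gq, varied widely within each genotype. It had 38.4, 43.1, 4.997 and 3.97 CPM among the controls, and 39.9, 22.5, 5.99 and 5.30 CPM among the knockouts. The libraries numbered 1 and 2 were high and those numbered 3 and 4 low in both genotypes. Between genotypes the log2 fold change was -0.30 (SE 0.90), and it ran from -1.001 to 0.22 when single libraries were left out. Rgs16 shares 236 of its 2339 merged exon bases with the antisense gene Gm28513, and reads from the 2 genes cannot be told apart there.

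In the R12 group, Rgs10, a small RGS protein that is little more than its RGS domain, was higher in every PUS10KO library than in any control library. It had 7.93, 11.2, 12.3 and 12.7 CPM among the controls and 15.8, 15.9, 20.4 and 17.9 CPM among the knockouts (chromosome 7, 128373621 to 128418758). The log2 fold change was 0.67 (SE 0.18). Rgs12 (chromosome 5, 34949445 to 35039644), a large multidomain RGS protein, had 24.3, 38.8, 33.2 and 29.4 CPM in control and 35.4, 32.5, 36.0 and 35.6 CPM in PUS10KO. The genotypes overlapped, and the log2 fold change was 0.15 (SE 0.15), with 3 pairs higher and the pair numbered 2 lower in PUS10KO. Rgs12 shares 467 exon bases with the antisense gene Gm43791, so that its counts are uncertain to that extent.

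**Figure D2:**
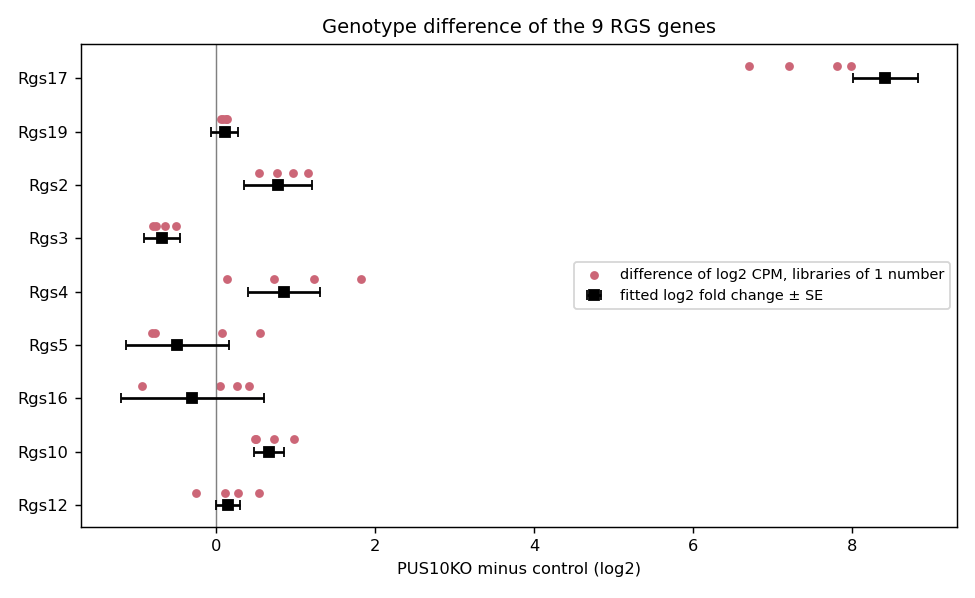
Difference between PUS10KO and control for the 9 RGS genes, on a log2 scale. Black squares with bars are the fitted log2 fold change ± SE, and red points are the differences of log2 CPM between libraries of the same number, which for Rgs17 are pulled toward 0 by the prior count; Rgs17 stands at 8.42 and the other 8 genes between -0.68 and 0.85.

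Counted over the 9 genes, the fitted change was above 0 for 6 and below 0 for 3, with a median of 0.15, beside a median of 0.01 over all genes tested. Rgs17, whose difference had led to the choice, and Rgs10 were past the threshold of edgeR's test (adjusted p under 0.05), 2 of 9 genes, where 13.0% of all genes tested did (5.90% higher and 7.11% lower in PUS10KO). That of Rgs10 was lost with upper quartile scaling and in 7 of the 8 fits that left out 1 library, all except that without control 4. DESeq2 called Rgs3 besides these 2. With the replicate block Rgs2, Rgs3 and Rgs4 were past it as well, 5 of 9 genes, where 39.0% of all genes tested were. For Rgs17, Rgs3 and Rgs10, 3 of 9 genes, the libraries of the 2 genotypes did not overlap, which held for 20.3% of all genes tested. The difference had 1 sign in all 4 pairs for 6 of the 9 genes, 5 higher and 1 lower in PUS10KO, and for 55.3% of all genes tested. These counts describe genes that had been listed with the same contrast known, and nothing is read from them.

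Levels were also compared between genes, as CPM per kilobase of merged exons. In control the order was Rgs19 (24.1 ± 4.02), Rgs16 (9.68 ± 8.999), Rgs4 (8.41 ± 4.03), Rgs10 (6.44 ± 1.26), Rgs2 (3.92 ± 2.06), Rgs12 (3.70 ± 0.720), Rgs3 (0.917 ± 0.201), Rgs5 (0.695 ± 0.571) and Rgs17 (0.00930 ± 0.00843). In this order Rgs19 stood clear of the second gene, the next 5 genes overlapped their neighbours within their SD, as did Rgs3 and Rgs5, and Rgs17 was last. In PUS10KO Rgs17 reached 3.39 ± 0.402 CPM per kilobase, the seventh of the 9 levels, just under Rgs12 (4.11 ± 0.191) and above Rgs3 (0.572 ± 0.115). Rgs19 was again first there (26.0 ± 4.81), followed by Rgs4 (15.2 ± 6.01) and Rgs10 (10.2 ± 1.28).

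The second question was how far the genes differed between library numbers, a contrast that played no part in choosing them. Libraries of the same number deviated together in both genotypes, and the labels do not say what a number shares. The number was tested with genotype in the model, by an edgeR quasi-likelihood F test of 3 coefficients. By this test 6 of the 9 genes differed between numbers, where 42.4% of all genes tested did. Rgs16 had the lowest adjusted p (0.000585). Averaged over genotypes, it was 8.37-fold higher in the libraries numbered 1 than in those numbered 4.

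Rgs2 also differed between numbers (adjusted p = 0.0016), in the other direction. It was 2.65-fold higher in the libraries numbered 3 than in those numbered 2. Rgs5 spanned 5.60-fold, lowest in number 1 and highest in number 4 in both genotypes (adjusted p = 0.00689, or 0.0533 without control 4). Rgs4 spanned 3.18-fold, with number 1 lowest in both genotypes (adjusted p = 0.0216), a call lost without control 1 (0.122) or PUS10KO 2 (0.100). Rgs19 spanned only 1.43-fold, with number 1 highest in both genotypes (adjusted p = 0.0148), a call lost without control 3 (0.0521) or PUS10KO 3 (0.0545). Rgs3 was at the threshold (adjusted p = 0.0497), and it kept this call only without control 1 or PUS10KO 1 among the fits that left out 1 library.

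No difference between numbers was called by the edgeR F test for Rgs17 (adjusted p = 0.63), Rgs12 (0.568) or Rgs10 (0.145). The variation of log2 CPM over the 8 libraries was split into genotype, number and a remainder. Number held 96.6% of it for Rgs16, 93.7% for Rgs19, 88.9% for Rgs5, 65.8% for Rgs2 and 56.7% for Rgs4. Genotype held 98.9% for Rgs17, 70.8% for Rgs10 and 61.8% for Rgs3, and Rgs12 was the only gene with most of its variation in the remainder (53.4%). Over all genes tested the median share was 58.0% for number and 22.1% for genotype.

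**Figure D3:**
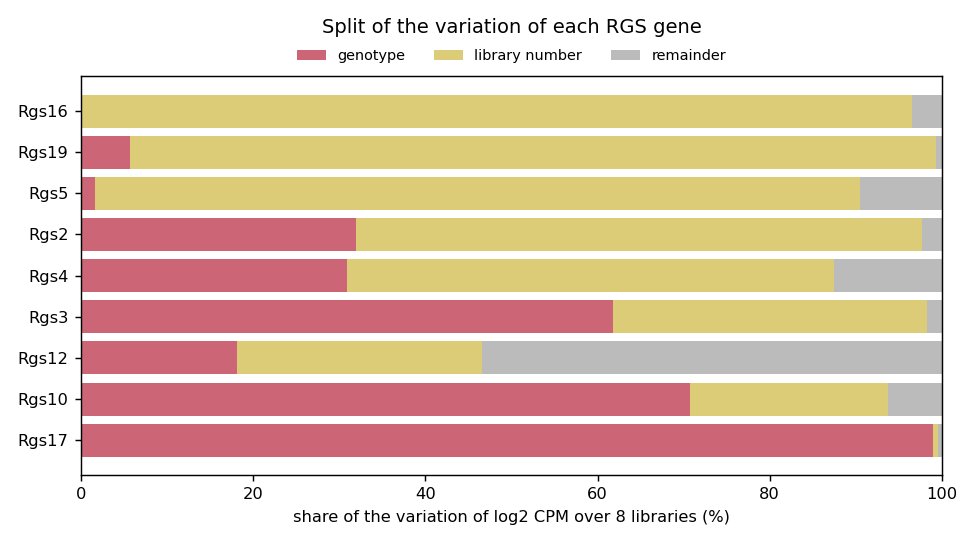
Share of the variation of log2 CPM over the 8 libraries (horizontal axis, percent) that went with genotype, with library number and with neither, for each of the 9 RGS genes. Number holds 96.6% for Rgs16, genotype holds 98.9% for Rgs17, and the remainder holds 53.4% for Rgs12.

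Markers of pericytes and smooth muscle are given beside these values because Rgs5 marks pericytes. Of 8 such markers tested 5 fell and 1 rose in PUS10KO, where 7.11% of all genes tested fell and 5.90% rose. Their summed level was 6723 to 20095 CPM in control and 2619 to 3607 CPM in PUS10KO. Acta2 and Tagln held most of it (14070 and 5198 CPM in control 1). Those that fell were Cspg4, Mcam, Myh11, Acta2 and Tagln, and Notch3 rose. The call of Myh11 was lost with limma voom (adjusted p = 0.0647). That of Notch3 held in 4 of the 8 fits that left out 1 library. With the replicate block, which called 39.0% of all genes tested, the adjusted p was 0.000182 for Myh11 and 8.55e-05 for Notch3 (edgeR). Cnn1 was higher in PUS10KO in all 4 pairs (log2 fold change 1.46). It did not pass edgeR's test (adjusted p = 0.146) but did with DESeq2 (0.0454) and the block (0.00597). The pericyte markers Kcnj8 and Abcc9 were not analysed here. Of 3 neural markers measured 1 fell: Tubb3 had 18.3 to 47.0 CPM, and Stmn2 fell from 3.61 to 11.4 CPM in control to at most 0.253 CPM in PUS10KO (log2 fold change -5.91, adjusted p = 0.00131, edgeR). The part of these cell types in the RGS values was not tested.

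The surroundings of the genes were then examined, a property the choice had not used. Over all genes tested 13.0% were called without and 39.0% with the replicate block, the shares to set beside the neighbour counts. Of 4 other tested genes with a lower boundary within 1 Mb of that of Rgs17, 1 rose and the others did not pass the test. The gene that rose was Vip, which encodes vasoactive intestinal peptide, a ligand of receptors coupled to Gs, and lies 186 kb away (chromosome 10, 5639218 to 5647617, plus strand). It had 0.0973, 0.328, 0.258 and 0.144 CPM among the controls, and 24.7, 31.5, 15.1 and 7.85 CPM among the knockouts. All PUS10KO libraries lay above all control libraries, with a 4-fold spread among them. The log2 fold change of Vip was 6.56 (SE 0.57, adjusted p = 0.000214, edgeR's test). Vip passed the test whichever 1 of the 8 libraries was left out. It had 2, 6, 5 and 3 reads among the controls and passed the filter on low counts through its PUS10KO reads alone.

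Mtrf1l and Fbxo5, which lie between Vip and Rgs17, had log2 fold changes of 0.18 (SE 0.16) and -0.15 (SE 0.28). Mtrf1l, a mitochondrial release factor gene, and Fbxo5, an inhibitor of the anaphase-promoting complex, did not pass the test (adjusted p = 0.534 and 0.791). The median of chromosome 10 was -0.25 over 576 genes. Around Rgs2, Ro60 fell (log2 fold change -0.83, SE 0.19, adjusted p = 0.0203), a call lost without PUS10KO 2, 3 or 4 (up to 0.0618). With the replicate block the adjusted p of Ro60 was 0.000917 (edgeR). Uchl5 and Glrx2 had log2 fold changes of 0.14 and 0.19 (adjusted p = 0.803 and 0.473). Around Rgs3, edgeR's test called 0 of 16 genes, 4 of them at an unadjusted p under 0.05, while limma voom called 0 and DESeq2 2. With the replicate block 5 of the 16 were called, among them Pole3 (adjusted p = 0.00624, edgeR) and Alad (0.0408). The nearest, Pole3, Alad and Hdhd3, had log2 fold changes of 0.43, 0.37 and 0.05, against -0.68 for Rgs3 itself. Around Rgs12, Msantd1, Lrpap1 and Htt had -0.45, 0.32 and 0.20 (adjusted p = 0.559, 0.229 and 0.536). Within 1 Mb of Rgs12, 1 of 19 genes fell and 0 rose. With the block 6 of the 19 were called, among them Lrpap1 (adjusted p = 0.0151, edgeR). Genes with large changes also lay within 1 Mb of other RGS genes. Near Rgs19, 3 of 22 genes rose and 0 fell, among them Zbtb46 (log2 fold change 2.63, edgeR adjusted p = 0.000232). Near Rgs16, 1 of 9 rose and 0 fell, Npl (2.77, 0.0052). Near Rgs10, 1 of 37 rose and 2 fell, among them 9130019O22Rik (-4.95, 0.000171). Near Rgs4 and Rgs5, 1 of 8 and 1 of 7 fell, in both cases the same gene, Olfml2b (-0.99, 0.0106). Rgs4 and Rgs5 are each counted as a neighbour of the other.

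**Figure D4:**
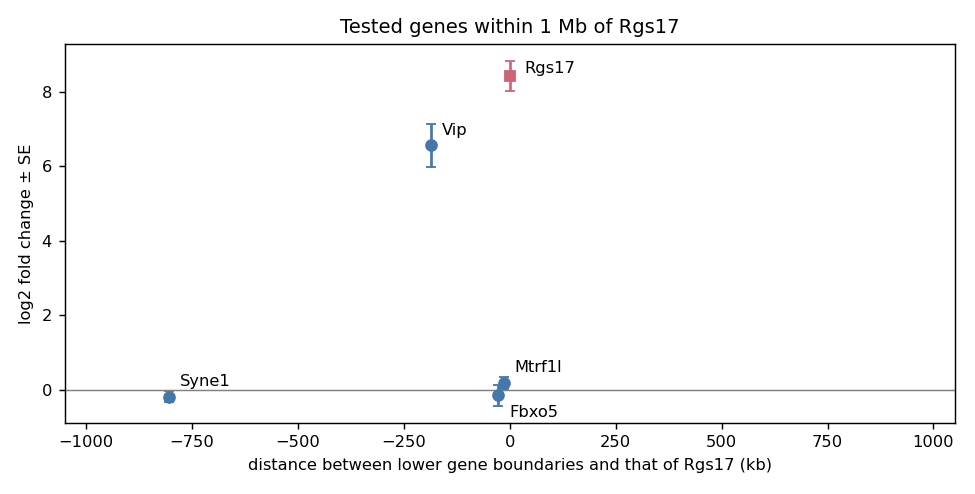
Fitted log2 fold change ± SE (vertical axis) of the tested genes within 1 Mb of Rgs17 against the distance between lower gene boundaries in kb (horizontal axis). Vip at 6.56 stands near Rgs17 at 8.42, while Mtrf1l, Fbxo5 and Syne1 lie between -0.19 and 0.18.

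The genes whose pattern was most like that of an RGS gene were taken from 10610 genes by Pearson's r of log2 CPM over the 8 libraries, which the points share. For Rgs17 these were the Y-linked genes Uty (r = 0.996), Kdm5d (0.995) and Eif2s3y (0.994). Genotype held 98.9% of the variation of Rgs17, and this contrast had led to its choice. Any gene near 0 in control and present in PUS10KO therefore has a high r with it, and no link is read from these values. The genes most like Rgs2 were Fam160a1 (0.990), Armcx2 (0.988) and Dhcr7 (0.987). Pex7 (0.991), Ptgr2 (0.990) and Echdc1 (0.988) were most like Rgs3. For Rgs12 the highest values were lower, with Pask (0.956), Garem2 (0.936) and Zfp629 (0.914).

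The partners of RGS proteins were described from 7 lists of G protein signalling genes, by the same edgeR test between genotypes. Each count below stands beside 13.0% of all genes tested that were called without and 39.0% with the replicate block. Of 14 tested other genes with an RGS domain 1 rose, 2 fell and 11 did not pass (median log2 fold change -0.06), and 3 rose and 2 fell with the replicate block. Besides Rgs20, these were Snx13 and Snx25, sorting nexins with an RGS-like domain. Snx13 fell from 59.4 ± 7.59 to 38.1 ± 5.83 CPM, by -0.64 on the log2 scale (adjusted p = 0.0223), a call lost when control 1 or 4 or PUS10KO 1, 2 or 3 was left out (0.065 at most). Snx25 had -0.61 (adjusted p = 0.0463), a call lost with limma voom and without any 1 library except control 3 or 4 (up to 0.126). Rgs8, an R4 gene, had too few reads to be tested, with 1, 0, 0 and 3 among the controls and 28, 22, 10 and 51 among the knockouts. Over each genotype these were 4 and 111 reads, a ratio of 25.7 (exact 95% counting interval 9.76 to 95.9).

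The targets of RGS proteins, the G alpha subunits, showed no change that was called without the replicate block. The edgeR test, DESeq2 and limma voom each called 0 of 12, though by edgeR 1 had an unadjusted p under 0.05, and with the replicate block 2 fell (median log2 fold change -0.14). Gnas, the alpha subunit of Gs, had 1111 ± 89.2 CPM in control and 1021 ± 107 CPM in PUS10KO (log2 fold change -0.12, adjusted p = 0.609). Gnai2, a Gi subunit, had 323 ± 46.8 CPM in control and 230 ± 52.8 CPM in PUS10KO (log2 fold change -0.49) and was lower in all 4 pairs. Its adjusted p by edgeR was 0.135 without and 0.00187 with the block. Gnai3, another Gi subunit, stood at -0.29 on the log2 scale, with an adjusted p of 0.248 without and 0.0428 with the block. Gnaz, the alpha subunit of Gz, a target of the RZ group, had 0.639 ± 0.219 and 0.785 ± 0.440 CPM, which do not differ beyond their spread (named after its values were seen).

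Of 11 G beta and gamma subunits 1 rose, 1 fell and 9 did not pass (median -0.04). Gng2, a gamma subunit, fell from 4.42 ± 1.23 to 0.430 ± 0.193 CPM (adjusted p = 0.000767 for a log2 fold change of -3.36, SE 0.38), and Gng7 rose from 0.751 ± 0.319 to 2.04 ± 0.472 CPM (adjusted p = 0.0343). The call of Gng7 was lost with upper quartile scaling and when control 1, 2 or 3 or PUS10KO 2, 3 or 4 was left out (up to 0.0957). Among 11 other regulators 1 rose and 10 did not pass (median 0.03), and 1 rose and 1 fell with the block. The gene that rose was Arrb1, a beta-arrestin that uncouples and internalises receptors, from 28.4 ± 4.46 to 53.7 ± 4.74 CPM (adjusted p = 0.00306 for a log2 fold change of 0.92, SE 0.14).

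In adenylyl cyclase and cAMP signalling 2 of 22 genes rose, 1 fell and 19 did not pass (median 0.13), and 4 rose and 2 fell with the block. The cyclase gene Adcy4 rose from 0.241 ± 0.163 to 2.44 ± 0.492 CPM (adjusted p = 0.00286 for a log2 fold change of 3.31). With 8, 3, 7 and 1 reads among the controls, Adcy4 passed the filter on low counts through its PUS10KO reads alone. Adcy2 rose from 7.12 ± 2.17 to 19.1 ± 7.89 CPM (adjusted p = 0.0267), a call lost with limma voom and when control 2, 3 or 4 or PUS10KO 1, 3 or 4 was left out (up to 0.0745). The phosphodiesterase gene Pde4a, whose product breaks down cAMP, fell (log2 fold change -1.12, adjusted p = 0.0145).

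In the Gq branch, phospholipase C beta and calcium signalling, 1 of 16 genes rose, 2 fell and 13 did not pass (median -0.15), and 4 rose and 4 fell with the block. Plcb4, 1 of the phospholipase C beta genes whose products Gq activates, had 135, 103, 35.5 and 51.2 CPM among the controls. Among the knockouts it had 20.4 to 26.0 CPM (log2 fold change -1.81, adjusted p = 0.0159, or up to 0.0519 without PUS10KO 2 or 3). Plcb1 and Plcb3, of the same group, did not pass (0.44 and -0.17, adjusted p = 0.141 and 0.358). Itpr2, an inositol trisphosphate receptor of calcium stores, fell (-0.73, adjusted p = 0.0209), a call lost when control 1, 3 or 4 or PUS10KO 1, 2 or 3 was left out (up to 0.0613). Prkca, a protein kinase C gene, rose (0.62, adjusted p = 0.025), a call lost with upper quartile scaling and without control 1 or PUS10KO 2, 3 or 4 (up to 0.0732).

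Of 61 listed G protein-coupled receptors 33 were measured and 31 tested. Of the 31 tested 8 rose, 3 fell and 20 did not pass (median -0.13). With the block 13 rose and 12 fell, that is 11 of 31 called without and 25 with it. Ptger2, a prostaglandin E2 receptor coupled to Gs, had 4 counts in control and 385 in PUS10KO, a ratio of 89.1 (exact 95% counting interval 34.5 to 329, adjusted p = 7.79e-05). Gprc5b, an orphan receptor, rose from 13.98 ± 0.656 to 35.9 ± 6.01 CPM (adjusted p = 0.000631). Ackr3, an atypical chemokine receptor that signals through arrestin, rose from 6.85 ± 2.53 to 23.1 ± 3.00 CPM (adjusted p = 0.00369). Agtr2, an angiotensin receptor, had 0, 0, 2 and 4 reads among the controls and 106, 218, 1796 and 1496 among the knockouts, so that most reads were in PUS10KO 3 and 4. Its log2 fold change was 9.03 (adjusted p = 0.00286), or 10.06 without control 4. Ptger2 and Agtr2 passed the filter on low counts through their PUS10KO reads alone. This also held for other named genes, among them Adcy4, Rgs20, Vip and Rgs17. Thy1, Stmn2 and Gng2 passed it through their control reads. Library number was called for 22 of these 31 receptors and for 4 of the 12 G alpha subunits, where 42.4% of all genes tested were called.

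**Figure D5:**
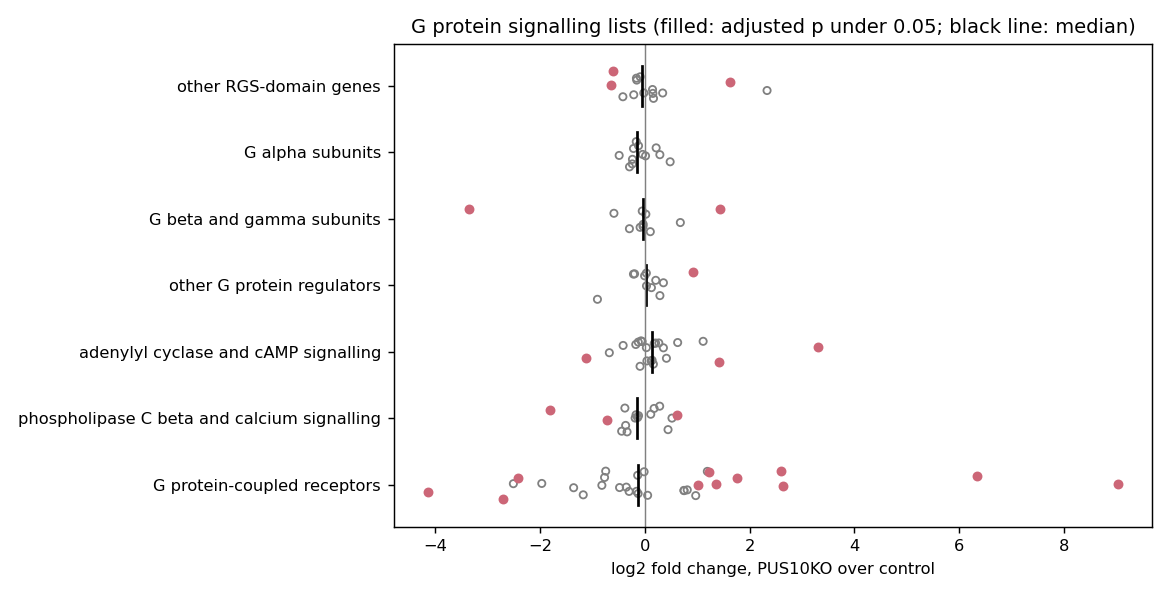
Fitted log2 fold change of PUS10KO over control (horizontal axis) for each tested gene of the 7 signalling lists, with filled points for an adjusted p under 0.05, open points for the others and a black line for the median of the list. List medians lie between -0.15 and 0.13, no G alpha subunit is filled, and the G protein-coupled receptors hold 11 filled points.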

How the data were processed

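For 8 libraries the authors deposited raw counts per gene, as whole numbers, and a normalized table whose values look like a log2 scale. STAR 2.7.8a, DESeq2 and mm10 are listed, without roles, in the submitters' processing notes; no source used here gives the counter, its strand setting or the annotation. In the normalized table the paired values of PUS10KO and control added up to the same total in each of 12211 genes (tolerance 1e-06), which leaves no difference between numbers in it.

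The analysis used R 4.3.3 and edgeR 4.0.16: filterByExpr, TMM scaling, a robust quasi-likelihood test with genotype as the only term, and Benjamini-Hochberg adjustment over 11909 genes (threshold 0.05). The SE is the absolute log2 fold change divided by the square root of F. Differences between library numbers were tested with genotype and number as terms. Log2 CPM used a prior count of 2. DESeq2 1.42.0, limma 3.58.1 (voom), other scalings, no filter, the replicate block and leaving out each library were alternatives. Counting intervals (95%) are exact (Clopper-Pearson). Positions came from GENCODE M21 (GRCm38) by symbol for 12048 genes and by synonym for 153; 10 had no match.

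Same-numbered libraries of the genotypes deviated together from their group means (r = 0.681, 0.722, 0.633 and 0.687 over genes, which do not vary independently), more than with any other number (at most 0.582). The counts, not the labels, thus pair the libraries. All libraries of a genotype differed by more than sampling noise (chi-square per degree of freedom at least 18.2).

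The RGS genes and the lists were chosen with earlier results of these data known. Genes named from a list were up to 4 called genes by lowest p, or the 2 with the highest level where none was called; neighbours were the 3 nearest of Rgs17, Rgs2, Rgs3 and Rgs12; genes most alike were the 3 with the highest r with mean log2 CPM not under 1, without predicted genes. Syne1, Zbtb46, Npl, 9130019O22Rik, Olfml2b, Plcb1, Plcb3, Gnai2, Gnaz, Rgs8 and the markers were named besides.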

Additional observations from a re-analysis of the deposited data

Results flagged for a closer look

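In groups of 4 libraries, a library is given here where its gap to the nearest other one took more of the group's range than Dixon's 95% criterion allows. Of 104 such groups 8 passed it, and chance gives about 1 in 20. Among the RGS genes, PUS10KO 2 had 32.5 CPM of Rgs12, with the other PUS10KO libraries at 35.4 to 36.0. The G alpha subunit gene Gnai1 had 22.3 CPM in PUS10KO 1 and 1.68 to 5.01 in the others. Arrb1 had 35.1 CPM in control 3 and 25.8 to 26.7 in the other controls. Ackr3 had 18.7 CPM in PUS10KO 1 and 24.1 to 25.2 in the others. Near the RGS genes, Mtrf1l had 12.1 CPM in PUS10KO 1 and 12.8 to 12.9 in the others, and Ro60 had 143 CPM in control 1 and 84.8 to 92.5 in the others. The Y-linked genes Uty and Kdm5d had 0.0547 and 0.109 CPM in control 2, from 1 and 2 reads, and 0 in the other controls. Where the other libraries are at 0, any single read passes this criterion.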

How the results depend on the processing

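With the replicate block 2273 genes rose and 2368 fell, against 703 and 847 without it, and DESeq2 gave 1083 that rose. Leaving out 1 library gave 520 to 728 that fell, the lowest counts without PUS10KO 2 (560) or PUS10KO 3 (520). Called RGS genes numbered 2, or 5 with the block, 3 with DESeq2, 1 with upper quartile scaling and 1 to 2 with 1 library left out. The block called 5 other genes with an RGS domain, 2 G alpha subunits, 2 other regulators, 6 genes of cAMP signalling, 8 of phospholipase C signalling and 25 receptors. DESeq2 called 5 other genes with an RGS domain and 5 of cAMP signalling, and upper quartile scaling called 1 G beta or gamma subunit. With 1 library left out, 0 to 3 other genes with an RGS domain (0 without PUS10KO 1 or 2), 1 to 2 G beta and gamma subunits and 0 to 3 genes of phospholipase C signalling were called (0 without PUS10KO 2 or 3, and 1 without control 1). The log2 fold change of Rgs17 ran from 8.05 to 8.99 with 1 library left out, and the authors' normalized values gave 3.41 with the block. Genes called for library number were 5050, or 3233 to 5687 with 1 library left out, lowest without PUS10KO 2 (3278), PUS10KO 3 (3289) or control 2 (3233). For number, the adjusted p of Rgs3 was 0.0699 with DESeq2 and 0.0525 without the filter. Leaving out 1 library gave 0.0447 to 0.227 for Rgs3, 0.0162 to 0.122 for Rgs4, 0.00283 to 0.0533 for Rgs5 and 0.0352 to 0.0545 for Rgs19. Fewer samples enter those fits; for the other settings the cause was not tested. Rgs17 in control rests on 6 reads and Rgs20 on 39, which limits their folds.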

Other observations

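The authors' deposited normalized table gave the same sign as the counts for all 9 RGS genes, with smaller differences between genotypes for Rgs17. Its mean values of Rgs17 differed by 3.41, from 5.89 to 6.08 in control to 9.31 to 9.50 in PUS10KO, where the counts gave a log2 fold change of 8.42. For Rgs2 it gave 0.66, for Rgs3 -0.44, for Rgs4 0.82 and for Rgs10 0.51. No source used here states the scale of that table, so the 2 sets of differences are not on a common measure.

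Rgs9bp, which encodes an anchor protein of RGS proteins of the R7 group, was on the list of other RGS genes and had too few reads to be tested, 16 among the controls and 30 among the knockouts, a ratio of 1.74 with a 95% counting interval (exact) of 0.917 to 3.41. Axin2, a scaffold of Wnt signalling with an RGS domain, had 0.197 ± 0.145 CPM in control and 1.05 ± 0.722 CPM in PUS10KO (log2 fold change 2.33, SE 0.73, edgeR adjusted p = 0.0725, or 0.00593 with the replicate block). Axin2 had 7, 0, 5 and 4 reads among the controls and passed the filter on low counts through its PUS10KO reads alone. Rgs9bp and Axin2 were both named after their values were seen.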
